A study of Mus musculus with 14 samples.

Results

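The genes described here encode the core machinery of pre-mRNA splicing and the RNA-binding proteins that guide it. They were taken by name, as the genes with a symbol in the Srsf, Sf3a, Sf3b, Snrp, Hnrnp or Prpf series on probe sets that carry a single symbol, and where a gene had several such probe sets, the brightest on average in the 8 WT HSC arrays stood for it. This gave 54 of the 12393 genes so read, on 138 probe sets, in 5 families: 9 SR proteins (Srsf), 9 subunits of SF3a and SF3b (Sf3), 8 snRNP proteins (Snrp), 18 hnRNPs (Hnrnp) and 10 pre-mRNA processing factors (Prpf). Of the 54, 52 reached a log2 value of 5, taken here as detected, on at least 2 of the 14 arrays. Snrpn, with values near 2.5, and Sf3b5, with values of 3.82 to 4.86, did not.

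Splicing removes introns on the spliceosome, which is built from snRNPs. SR proteins bind exons and mostly promote the use of nearby splice sites, hnRNPs often repress them, and SF3a and SF3b are the parts of the U2 snRNP that hold the branch point. The Sm proteins form the ring common to most spliceosomal snRNPs, and the Prpf proteins act mainly in the tri-snRNP and in the catalytic center. In blood, recurrent mutations of SF3B1, SRSF2, U2AF1 and PRPF8 are known from human myeloid neoplasms.

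HSCs came from 12-mo-old p53+/m mice, from 12-mo-old p53+/- mice, and from WT mice of 2, 6, 12 and 21 mo; WBM, whole bone marrow, came from WT mice of 2 mo. The m allele encodes a truncated p53 and the p53+/m mouse is a model of early aging, while p53+/- mice keep a single intact copy. The labels give male C57Bl/6 for all mice. The study states that the mutant mice were back-crossed to C57Bl/6, so any strain difference that remained cannot be told apart from genotype. HSCs were side population cells, which pump out the Hoechst dye, that were also c-Kit+ and Sca-1+ and lacked lineage markers. Each of the 7 groups has 2 arrays, A and B, and each HSC array held RNA of pooled mice after 2 rounds of in vitro transcription, so p-values measure the spread between arrays, which may be in part technical. A field of the labels gives an age of 2 mo to all samples, whereas the titles and treatment fields give the ages used here. RNA was measured in bulk, so a change in the cells that make up a sample cannot be told apart from a change of RNA per cell.

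Values are log2 GC-RMA values, and array medians lay between 3.93 and 4.10. The defining markers separated HSCs from WBM: all 12 neutrophil markers measured were lower in 2-mo HSCs, and 9 of 16 HSC markers were higher and 1, Gfi1b, lower. Slamf1 and Mecom, also HSC markers, were below the detected level at 2 mo. The 5′ control probe set of 18S rRNA read 4.84 and 5.44 on the arrays of 21-mo HSCs, against 10.91 and 10.88 at 2 mo, and read 4.66 on array A but 9.68 on array B of WT 12-mo HSCs. In WBM it read 5.32 and 5.14. The part of this signal in the results below was not tested.

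Between 21 and 2 mo, 2 of the 54 splicing genes passed the threshold. Hnrnpl, which encodes a regulator of alternative exons that binds CA-rich RNA, was higher in old HSCs. Prpf8, which encodes the core protein of the catalytic center, was lower. The change is the 21 mo minus 2 mo difference of a quadratic trend fitted by limma over the 8 arrays of WT HSCs, and the threshold was a Benjamini-Hochberg adjusted p under 0.05 over 22626 probe sets together with a difference of at least 2-fold. The 1 gene higher stands beside 1.45% of all genes called higher, and the 1 gene lower beside 2.03% of all genes called lower, so neither count stands apart from the background.

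The log2 level of Hnrnpl was 5.72 and 5.68 at 2 mo, 5.56 and 6.23 at 6 mo, 6.86 and 5.82 at 12 mo, and 7.51 and 7.63 at 21 mo. Both 21-mo arrays lay above the 6 arrays of younger HSCs, and the 6-mo arrays overlapped those of 2 and of 12 mo. The fitted difference between 21 and 2 mo was 1.86 (SE 0.34), or 3.63-fold, with an adjusted p of 0.0498.

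The log2 level of Prpf8 was 10.16 and 10.10 at 2 mo, 10.04 and 9.88 at 6 mo, 9.36 and 9.87 at 12 mo, and 9.15 and 8.96 at 21 mo. The 21-mo arrays were the lowest of the 8 and did not overlap the others, and the lower 12-mo value was on array A. The fitted difference was −1.08 (SE 0.16), 2.12-fold lower in 21-mo HSCs, with an adjusted p of 0.0331. Each gene has 1 probe set, so no second reading is at hand. Both calls were lost when either 2-mo, 6-mo or 21-mo array was left out, with adjusted p-values over all alternatives from 0.0154 to 0.202 for Hnrnpl and from 0.0127 to 0.146 for Prpf8, while their log2 differences stayed between 1.76 and 1.96 and between −1.18 and −0.99.

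**Figure D1:**
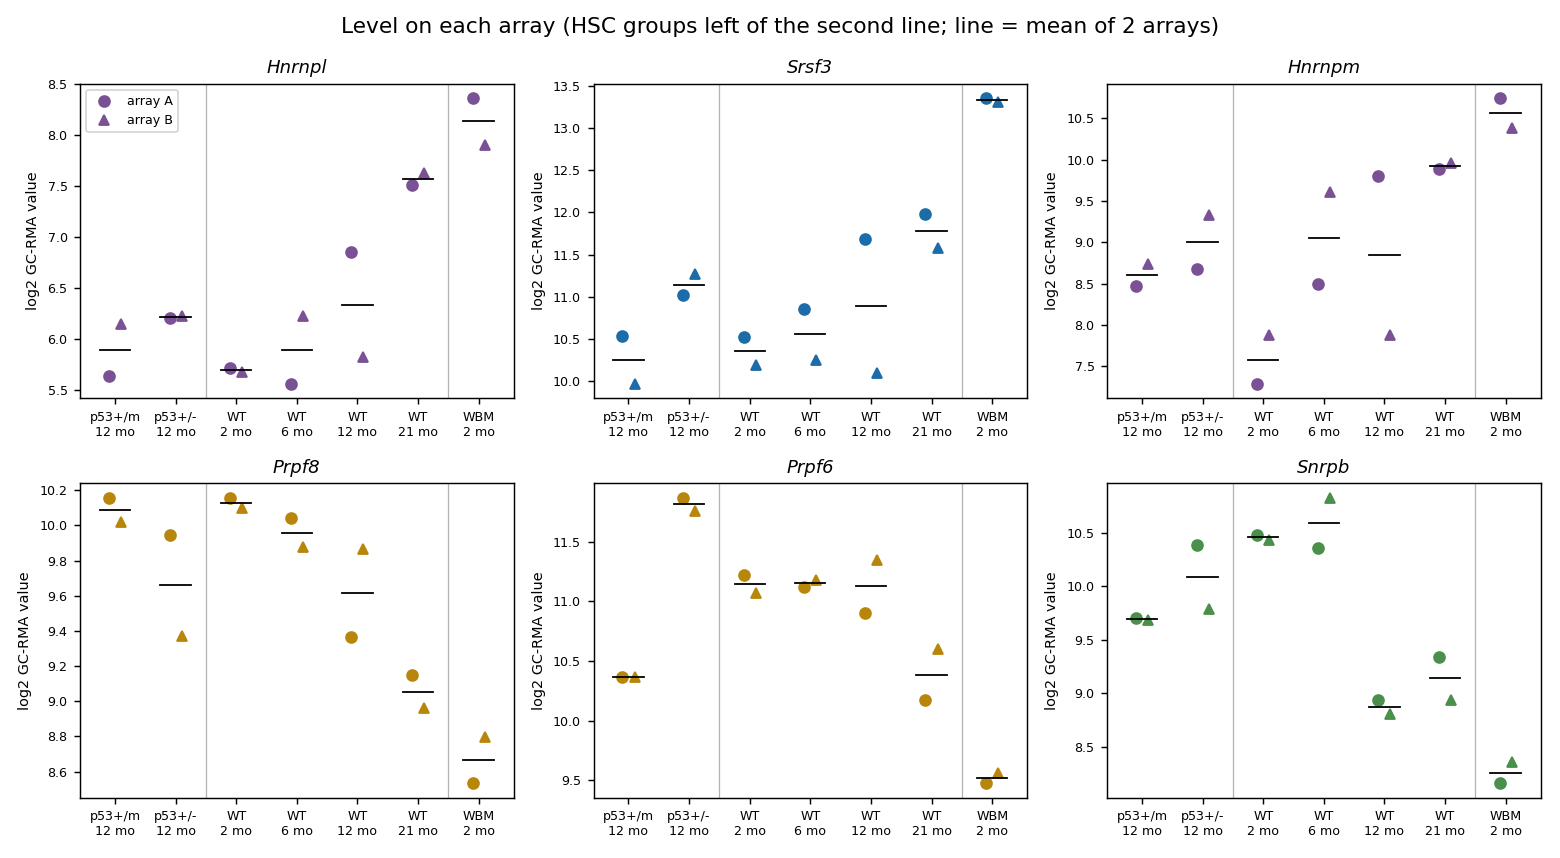
Log2 GC-RMA value (vertical axis) of 6 splicing genes on the 14 arrays, with circles for array A, triangles for array B and a bar at the mean of the 2 arrays of each group. Hnrnpl lies between 5.56 and 6.86 on the HSC arrays other than those of 21 mo and at 7.51 and 7.63 on those of 21 mo, and Prpf6 lies at 10.37 on both p53+/m arrays.

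The promoters of these 2 genes, as RefSeq gives them on GRCm38.p6, are shown because these are the members that passed the threshold with age and they moved in opposite directions. Hnrnpl lies on the plus strand at chr7:28810640-28810939 and Prpf8 on the plus strand at chr11:75486527-75486826; each window runs from upstream of the start site into the first transcribed bases, and capitals mark matches on either strand to the motifs listed after them.
Hnrnpl: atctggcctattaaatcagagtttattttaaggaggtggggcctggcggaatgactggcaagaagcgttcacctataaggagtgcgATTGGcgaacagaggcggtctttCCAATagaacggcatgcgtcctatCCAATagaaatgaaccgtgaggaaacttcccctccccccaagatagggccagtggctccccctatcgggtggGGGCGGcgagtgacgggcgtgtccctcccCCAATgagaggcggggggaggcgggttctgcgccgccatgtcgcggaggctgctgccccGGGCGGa
Prpf8: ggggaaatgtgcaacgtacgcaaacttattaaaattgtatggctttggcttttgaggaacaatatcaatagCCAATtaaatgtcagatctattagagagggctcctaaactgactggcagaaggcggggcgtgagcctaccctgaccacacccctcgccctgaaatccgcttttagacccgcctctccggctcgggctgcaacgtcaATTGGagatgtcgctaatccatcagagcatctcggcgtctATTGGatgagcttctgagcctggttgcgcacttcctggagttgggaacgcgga

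The motifs searched were the CCAAT box (CCAAT), the TATA box (TATAAA), the GC box (GGGCGG), the ETS core motif (CGGAAG), the E-box motif (CACGTG), the NRF1 motif (GCATGCGC) and the YY1 motif (AAGATGGC), and no match in the 2 windows overlapped another. The Hnrnpl window held 4 CCAAT matches and 2 GC boxes, at a GC content of 60%, and the Prpf8 window held 3 CCAAT matches and no other motif of the list, at 51.3%. Over the 49 members with a promoter in the table, 26 (53.1%) held CCAAT, 33 (67.3%) a GC box and 27 (55.1%) the ETS motif, against 41.1%, 38.2% and 18.8% of all 27025 genes in the table, which include many that HSCs do not express. A gene was counted if any of its promoters held the motif. The 49 members had 68 promoters and the 27025 genes 32851, fewer per gene, which gives members more sequence to match. The TATA box was found for 6 members (12.2%), against 15.7% of all genes, the E-box for 7 (14.3%), against 8.09%, the NRF1 motif for 2 (4.08%), against 3.05%, and the YY1 motif for 3 (6.12%), against 3.19%. A match describes the letters of the window and not a bound site.

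By family, the SR proteins had the highest median difference with age and the Prpf genes the lowest, but Prpf8 was the single call in these 2 families. The median log2 difference was 0.12 over the 54 genes and −0.02 over all genes. With single arrays left out, the median over the 54 ran from 0.02 without 2-mo array B to 0.19 without 6-mo array B. It was 0.21 with group means or with no 12-mo arrays. In the main fit the family median was 0.64 for the SR proteins, of which 7 of 9 were positive, and −0.51 for the Prpf genes, of which 7 of 10 were negative. With the mean of a gene's probe sets the Prpf median was −0.01 and that of the hnRNPs 0.47. The hnRNPs had a median of 0.18 with 13 of 18 positive, the Sf3 genes −0.16 with 4 of 9 positive, and the snRNP proteins −0.09 with 3 of 8 positive. Of the 52 detected members, 26.9% differed by at least 2-fold, against 30.9% of the 6788 detected genes, a share no larger among the splicing genes.

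**Figure D2:**
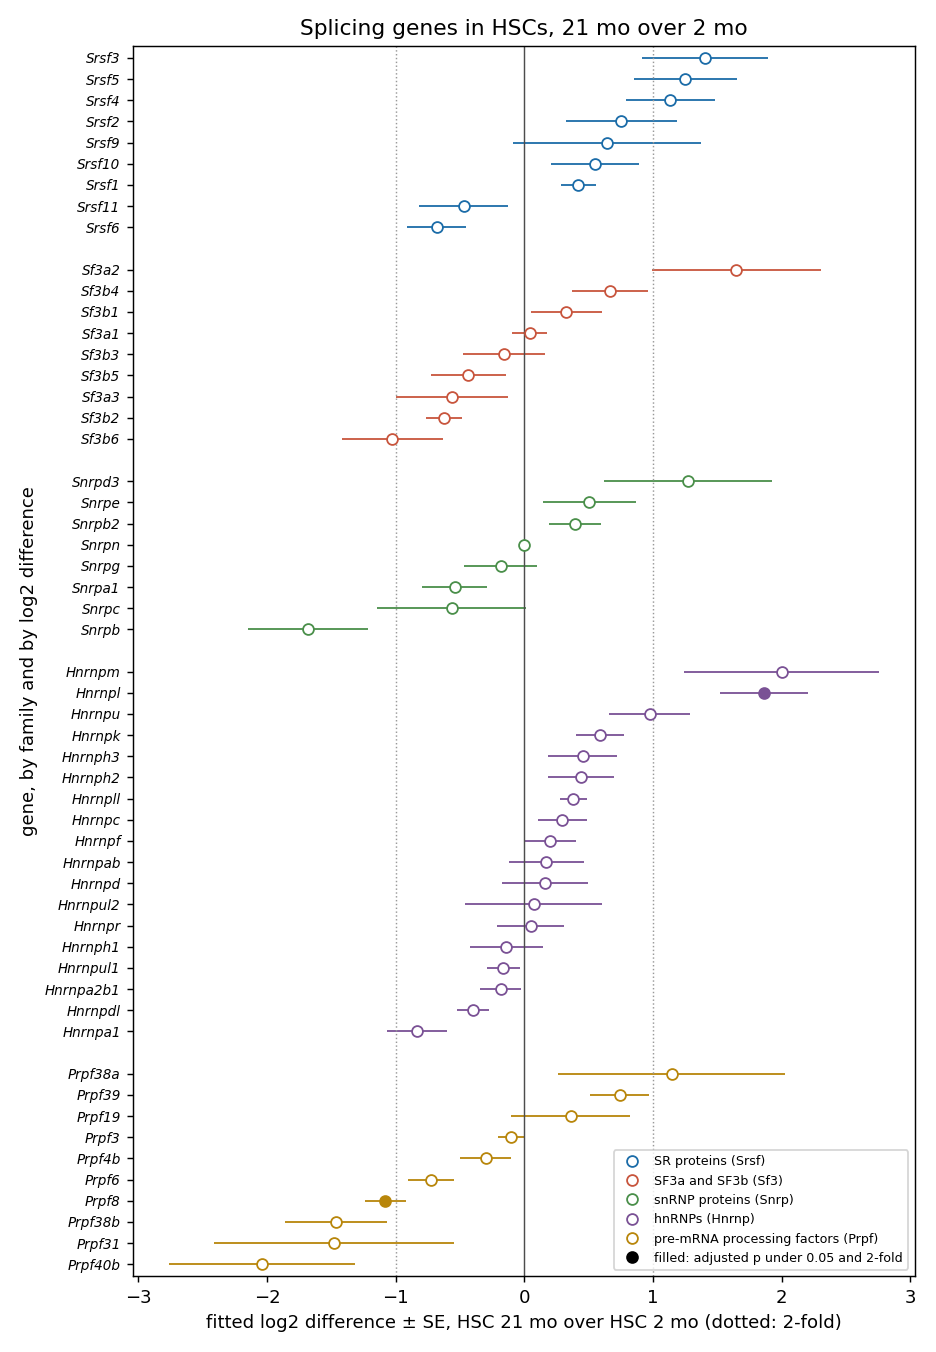
Fitted log2 difference ± SE of 21-mo over 2-mo HSCs (horizontal axis) for each of the 54 genes, grouped by family; filled points passed the threshold and dotted lines mark 2-fold. The SR proteins run from −0.68 to 1.41 and the Prpf genes from −2.04 (Prpf40b, not detected at 21 mo) to 1.15.

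Among the SR proteins, Srsf3, the smallest member and a factor in both splicing and export, had the largest positive difference at 1.41 (SE 0.49, adjusted p = 0.178), and Srsf6 the largest negative at −0.68 (SE 0.23, adjusted p = 0.161). Srsf3 read 10.53 and 10.19 at 2 mo, 10.86 and 10.26 at 6 mo, 11.69 and 10.10 at 12 mo, and 11.98 and 11.58 at 21 mo. The 21-mo arrays lay above the 2-mo and 6-mo arrays, and array A of 12 mo lay between the 2 arrays of 21 mo. Srsf4 at 1.13 and Srsf5 at 1.25 were the other SR proteins beyond 2-fold, with adjusted p-values of 0.136 and 0.148.

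Among the hnRNPs, the largest positive difference was that of Hnrnpm, which encodes a protein that binds GU-rich RNA. Its log2 level was 7.29 and 7.87 at 2 mo, 8.49 and 9.61 at 6 mo, 9.81 and 7.88 at 12 mo, and 9.89 and 9.97 at 21 mo. The 2-mo arrays were the lowest and the 21-mo arrays the highest, but the 12-mo pair spanned nearly all of that range, and the difference of 2.00 (SE 0.76) did not pass (adjusted p = 0.209). Hnrnpa1, a classic repressor of splice sites, had the most negative difference among hnRNPs at −0.83 (SE 0.23, adjusted p = 0.113).

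In the snRNP family, Snrpb encodes the Sm proteins B and B′ of the ring. It read 10.48 and 10.43 at 2 mo, 10.36 and 10.83 at 6 mo, 8.94 and 8.80 at 12 mo, and 9.34 and 8.93 at 21 mo. The 4 arrays of 12 and 21 mo lay below the 4 arrays of 2 and 6 mo, a step that a smooth trend in age describes only in part, and the fitted difference of −1.68 (SE 0.46) had an adjusted p of 0.111. Snrpd3, another Sm protein, had the most positive difference at 1.27 (SE 0.65, adjusted p = 0.356).

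In the SF3 family, Sf3a2, a subunit of SF3a, differed by 1.65 (SE 0.66, adjusted p = 0.232), and Sf3b6, which sits at the branch point adenosine, by −1.03 (SE 0.39, adjusted p = 0.213). Among the Prpf genes, Prpf40b, a U1-associated factor, differed by −2.04 (SE 0.72, adjusted p = 0.182), but it was below the detected level at 21 mo and reached it on 3 of 14 arrays, both of 2 mo and 12-mo array B, so that the size of the difference is uncertain. Prpf31 differed by −1.48 (adjusted p = 0.468), Prpf38b by −1.46 (adjusted p = 0.107) and Prpf38a by 1.15 (SE 0.88, adjusted p = 0.572). On 1452869_at, its other detected probe set, Prpf38b differed by 0.002. Before adjustment, 6 members were higher and 5 lower at p under 0.05 and 2-fold, where 6.68% of all genes were higher and 7.72% lower. Hnrnpl, Hnrnpm, Sf3a2, Srsf3, Srsf4 and Srsf5 were higher, and Prpf8, Prpf38b, Prpf40b, Sf3b6 and Snrpb lower.

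The 2 arrays of WT 12-mo HSCs disagreed more than those of any other group, over all genes as well as over these: the median size of A minus B was 0.42 over the 54 genes and 0.25 over all genes, where the other groups had 0.06 to 0.10 over all genes. At 12 mo, 14 of the 54 genes differed by over 1 on the log2 scale between arrays A and B, against 7 at 6 mo, 1 in WBM, 1 in p53+/- HSCs and 0 in the other groups. Array A minus array B had the same sign as 21 mo minus 2 mo for 45 of 54 genes (83.3%), against 81.3% of all genes. The correlation across genes, over arrays that the 2 differences do not share, was 0.76 over the 54 genes and 0.64 over all 12393; genes on the same array are not independent, so no test is attached. The 18S reading split the same 2 arrays, at 4.66 on A and 9.68 on B, as did the 3′ minus 5′ difference of the actin control probe sets, at 3.34 on A and 6.27 on B. The actin difference was 3.11 and 3.55 at 21 mo, against 4.59 and 4.65 at 2 mo. The same difference for GAPDH was 4.07 on A and 5.42 on B of 12 mo. For GAPDH the ages overlapped, at 3.19 and 4.09 at 21 mo against 3.91 and 3.68 at 2 mo. The part of these control readings in the age difference or in the split was not tested.

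**Figure D3:**
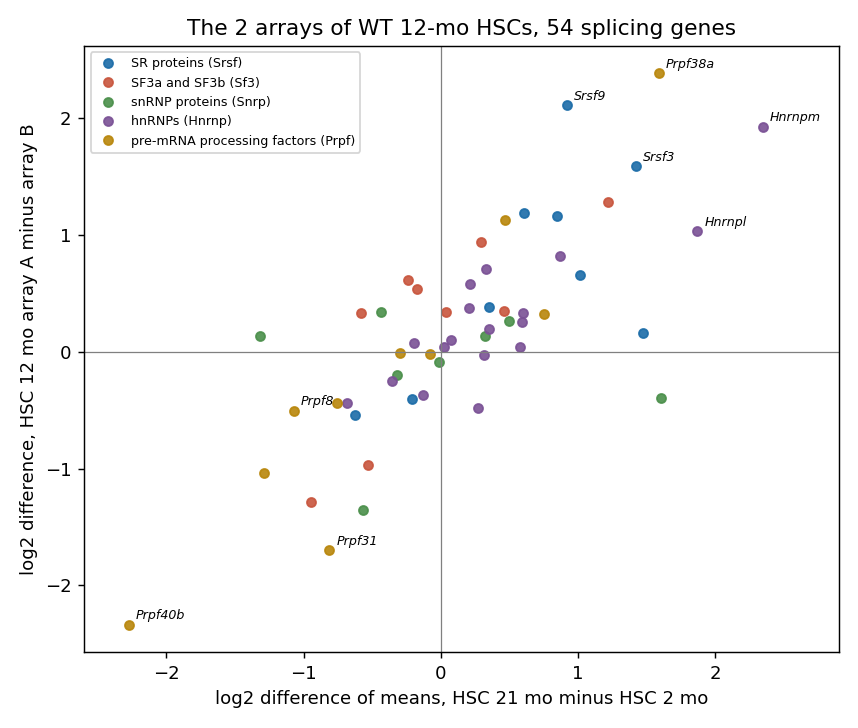
Log2 difference between array A and array B of WT 12-mo HSCs (vertical axis) against the difference of the 21-mo and 2-mo group means, not of the fitted trend (horizontal axis) for 54 splicing genes, colored by family. Most points lie in the lower left and upper right, with 45 of 54 of the same sign on both axes.

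Probe sets of the same gene did not read the same change with age. Of the 54 genes, 36 have over 1 probe set, and 32 have at least 2 that were detected. Over these 32 the median gap between the highest and lowest log2 difference within a gene was 1.01, against 0.76 over 2262 genes with at least 2 detected probe sets, and 17 genes (53.1%) had a gap over 1, against 38.0%. Such a gap widens with the number of probe sets. The 32 genes had 101 detected probe sets and the 2262 genes 5614, fewer per gene, so the gaps are not compared at equal numbers. No gene had probe sets that moved 2-fold or more in opposite directions. The probe set with the lowest level gave a higher 21-mo to 2-mo difference than the probe set with the highest level in 27 of 32 genes (84.4%), against 59.7% of the 2262 genes. For 2-mo HSCs over WBM, which shares the 2-mo arrays, it did so in 8 of 32 (25.0%), against 39.3%, and between the genotypes in 16 to 18 of 32.

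Hnrnpu, which encodes a nuclear scaffold protein, had a difference of 0.97 on the probe set used and 3.45 on 1450849_at, its weakest. The latter read 4.17 and 4.63 at 2 mo, so its difference is set against undetected values. Srsf1, the founding SR protein, had 0.42 on the probe set used and 2.76 on 1430982_at, and Hnrnpf had 0.20 and 2.18 on 1450963_at. None of these 6 readings passed the threshold, and the weaker probe set gave the larger difference in each of the 3 genes. The other detected probe sets of Hnrnpu differed by 0.41, −0.61 and 0.37 and did not pass either. Prpf6, a scaffold of the tri-snRNP, read −0.73 on the probe set used and 0.98 on 1424036_at. Hnrnpr was the member whose call depended on the probe set: 1452030_a_at rose by 1.07 with an adjusted p of 0.0331, whereas the stronger 1427129_a_at differed by 0.05. Counted over the 138 probe sets, 2 were higher and 1 lower in 21-mo HSCs, near the 1.32% and 1.51% of all probe sets.

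**Figure D4:**
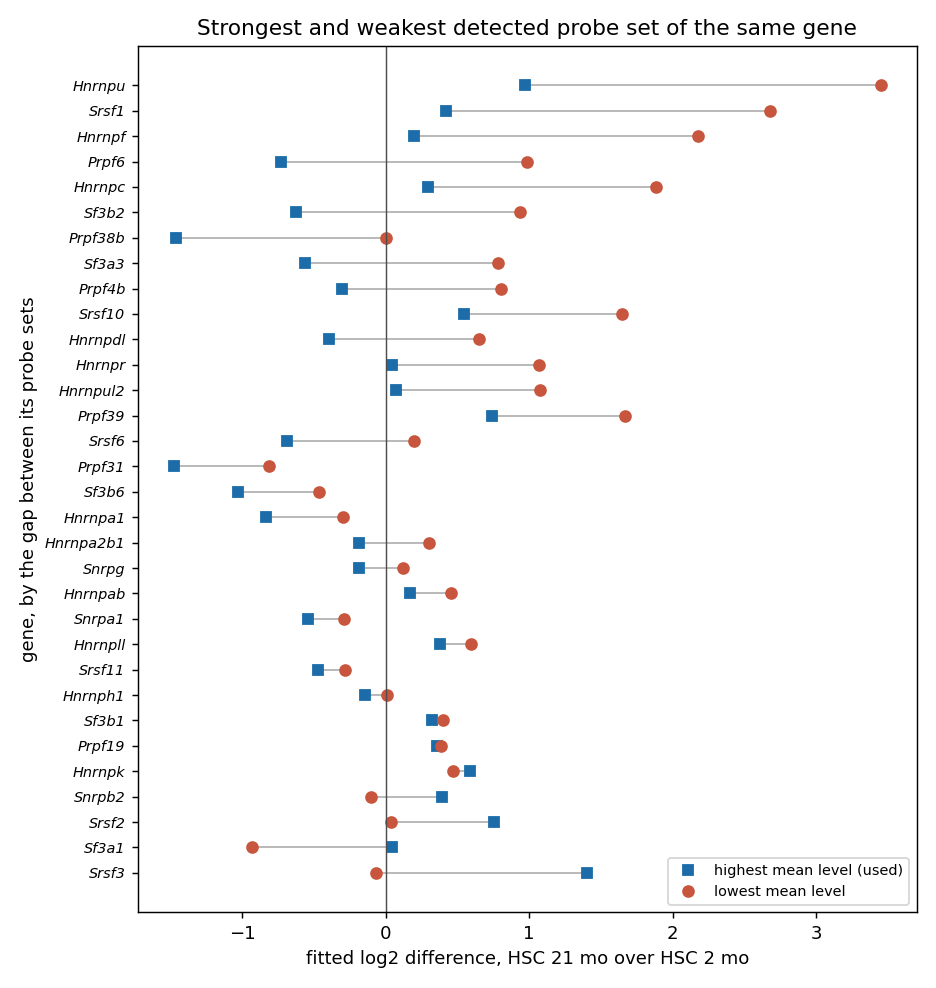
Fitted log2 difference of 21-mo over 2-mo HSCs (horizontal axis) on the strongest (squares) and weakest (circles) detected probe set of each of 32 genes, ordered by the gap. The circle lies to the right of the square in 27 genes.

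Young HSCs and WBM differed on 13 of the 54 genes, with 7 higher and 6 lower in HSCs. The higher genes were Snrpb, Snrpc, Prpf8, Prpf6, Prpf38b, Hnrnpa1 and Srsf6, and the lower genes Srsf3, Hnrnpl, Hnrnpm, Hnrnpd, Snrpb2 and Snrpd3. The test was limma on group means over the 10 WT arrays, at the same threshold. Of all genes, 13.3% were called higher and 10.5% lower, near the shares of 7 and 6 of 54. Of the 6788 detected genes, 1595 were called higher and 1208 lower, larger shares than the 7 and 6 of 52 detected members. Of the detected members 36.5% differed by at least 2-fold, against 52.6% of the detected genes. The balance depended on the probe sets: over all 138, 10 were higher and 19 lower, where 11.0% and 9.69% of all probe sets were called, and with the mean of a gene's probe sets 5 members were higher and 8 lower, 7 of the 13 calls were kept and the median was −0.23. The comparison shares the 2-mo HSC arrays with the age comparison, so the opposite signs of a gene in the 2 comparisons are not independent.

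Srsf3 read 10.53 and 10.19 in HSCs, against 13.36 and 13.31 in WBM. The groups lay far apart relative to their spread, and the difference was −2.97 (SE 0.52), 7.84-fold lower in HSCs, with an adjusted p of 0.00938. Of the other 5 detected probe sets of Srsf3, 4 were also lower in HSCs and passed, at −1.76, −1.45, −4.80 and −2.75, while the faintest, 1438215_at, differed by 0.49.

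Hnrnpl read 5.72 and 5.68 in HSCs, against 8.37 and 7.91 in WBM, a difference of −2.44 (SE 0.39, adjusted p = 0.00640). Hnrnpm read 7.29 and 7.87 in HSCs, against 10.75 and 10.38 in WBM, a difference of −2.98 (SE 0.68, adjusted p = 0.0250). Both hnRNPs were lower on each HSC array than on either WBM array. Hnrnpd, which encodes the mRNA-decay factor AUF1, differed by −1.16 (SE 0.31, adjusted p = 0.0445). Hnrnpa1 went the other way, at 12.73 and 12.52 in HSCs against 11.54 and 11.27 in WBM, a difference of 1.22 (SE 0.17, adjusted p = 0.00443).

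Among the snRNP proteins, Snrpb read 10.48 and 10.43 in HSCs, against 8.16 and 8.36 in WBM, with a difference of 2.20 (SE 0.20, adjusted p = 0.000700). Snrpc, a U1 snRNP protein, read 9.85 and 9.56 in HSCs, against 7.09 and 7.43 in WBM, with a difference of 2.44 (SE 0.62, adjusted p = 0.0370). Within this family other members went the opposite way: the Sm protein gene Snrpd3 differed by −2.12 (SE 0.55, adjusted p = 0.0394) and Snrpb2, of the U2 snRNP, by −1.11 (SE 0.17, adjusted p = 0.00629). Proteins of the same ring, SmB and SmD3, thus had transcripts that differed in opposite directions. The other detected probe set of Snrpb2, 1452422_a_at, differed by −0.03.

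The Prpf genes had the highest median, 0.92, with 8 of 10 positive. Prpf8 read 10.16 and 10.10 in HSCs, against 8.53 and 8.79 in WBM, a difference of 1.47 (SE 0.18, adjusted p = 0.00264). Prpf6 read 11.22 and 11.07 in HSCs, against 9.47 and 9.56 in WBM, a difference of 1.63 (SE 0.19, adjusted p = 0.00196). In neither gene did the groups overlap, but the second detected probe set of Prpf6, 1424036_at, differed by 0.13. Prpf38b differed by 1.87 (SE 0.36, adjusted p = 0.0128), but by −0.46 on 1452869_at, its other detected probe set. Prpf40b, at 2.17 (SE 0.71) against WBM values of 3.24 and 3.16 that are below the detected level, did not pass (adjusted p = 0.0828). Prpf38a had the most negative difference of the family at −0.81 (adjusted p = 0.641).

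The SR proteins had a median of −0.62, with 2 of 9 positive, and Srsf6 was the member that passed in that direction, at 1.07 (SE 0.23, adjusted p = 0.0207). The other detected probe sets of Srsf6 differed by 1.76 and −0.05. The hnRNPs had a median of −0.45 with 5 of 18 positive and the snRNP proteins −0.02 with 3 of 8 positive. No Sf3 gene passed; this family had a median of 0.16 and ran from −1.23 for Sf3a2 to 0.63 for Sf3b6. Over all 54 genes the median was −0.06, against −0.01 over all genes. At unadjusted p under 0.05 and 2-fold, 9 members were higher and 8 lower, where 15.7% of all genes were higher and 12.6% lower. Of the 6788 detected genes, 1864 were higher and 1451 lower, again larger shares than the 9 and 8 of 52 detected members.

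The calls differed in how far they held. Snrpb, Prpf8 and Hnrnpl passed under all 16 alternative fits, whereas Snrpd3 passed under 5, Hnrnpd under 6 and Snrpc under 8 of 16. When either 2-mo HSC array or either WBM array was left out, 4 or 5 members were higher and 2 or 3 lower.

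**Figure D5:**
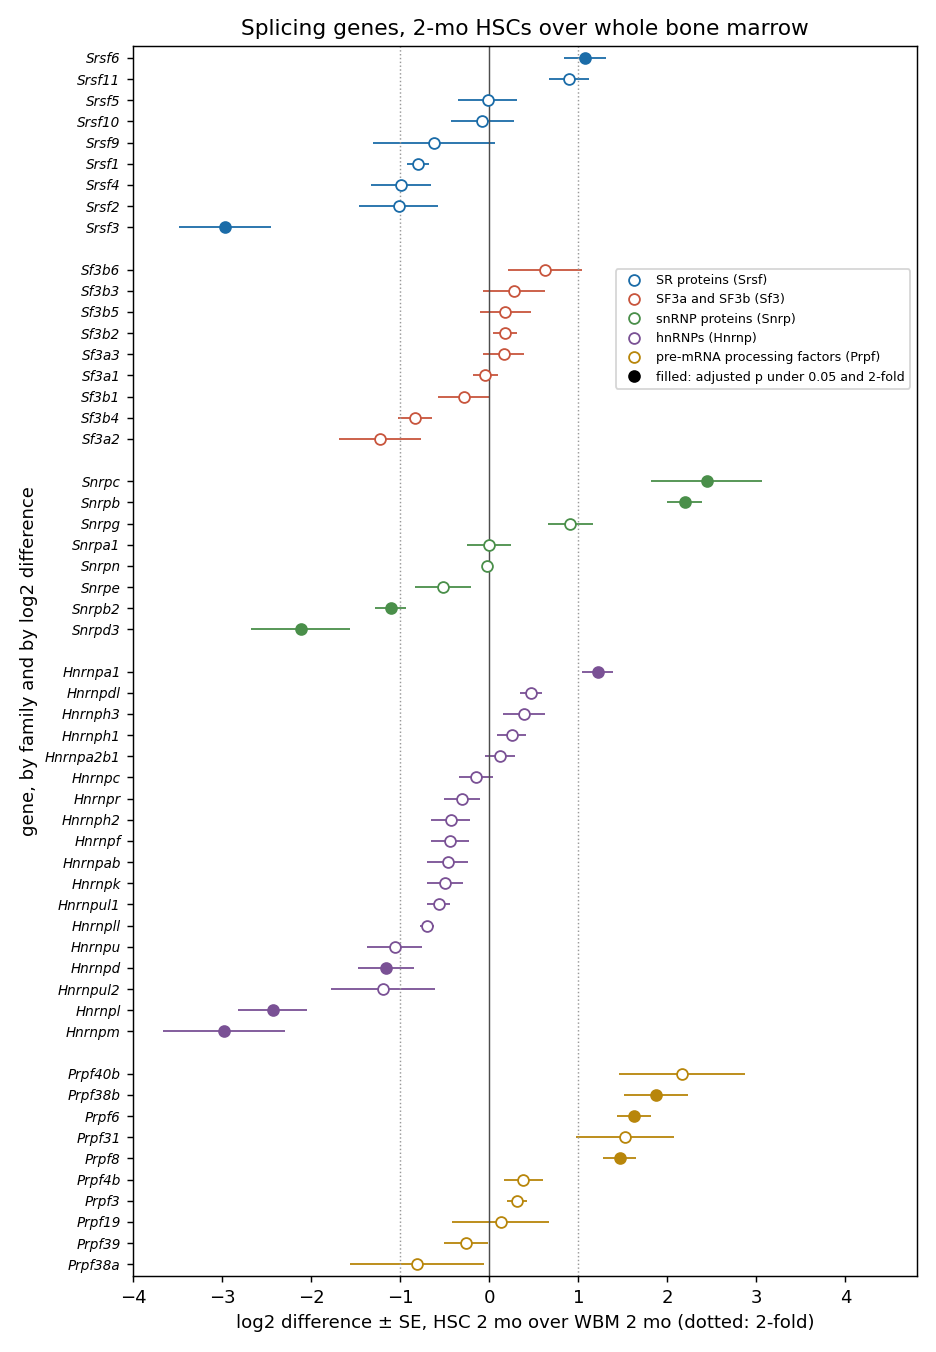
Log2 difference ± SE of 2-mo HSCs over WBM (horizontal axis) for each of the 54 genes, grouped by family; filled points passed the threshold and dotted lines mark 2-fold. The 13 filled points run from −2.98 for Hnrnpm to 2.44 for Snrpc.

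In the p53 mutants at 12 mo, a single splicing gene passed. Prpf6 was lower in p53+/m than in p53+/- HSCs, and none was higher; of all genes 0.0888% were called higher and 0.129% lower. No member passed between p53+/m and WT HSCs, where 0.137% of all genes were higher and 0.307% lower, or between p53+/- and WT HSCs, where 0.0807% were higher and 0.113% lower. Tests were limma on group means over the 12 HSC arrays, and the 3 comparisons share arrays. The 18S reading was 5.71 and 7.18 in p53+/m HSCs, 8.92 and 7.96 in p53+/- HSCs, and 4.66 and 9.68 in WT HSCs of 12 mo.

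Prpf6 read 10.37 and 10.37 in p53+/m HSCs, against 11.87 and 11.76 in p53+/- HSCs; WT HSCs of 12 mo read 10.91 and 11.35, between them. The p53+/m and p53+/- arrays did not overlap, and the difference was −1.44 (SE 0.18), 2.72-fold lower in p53+/m HSCs, with an adjusted p of 0.0349. The probe set is an x_at set, whose probes may also match other transcripts, and 1424036_at, the other detected probe set of Prpf6, differed by −0.41. The call held under 6 of 18 alternative fits and was lost when either array of either mutant, or either WT array of 2 or 6 mo, was left out.

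At unadjusted p under 0.05 and 2-fold, Hnrnph3 and Hnrnpul2 were higher and Hnrnpr and Prpf6 lower in p53+/m than in p53+/- HSCs, where 1.71% of all genes were higher and 1.86% lower. Hnrnpr, which encodes a protein related to hnRNP Q, read 10.86 and 11.28 in p53+/m HSCs, against 12.10 and 12.70 in p53+/- HSCs, a difference of −1.33 (SE 0.26, adjusted p = 0.122). A second probe set of the gene, 1437526_x_at, fell by 1.43 and passed the threshold, the other call among the 138 probe sets. Its remaining detected probe set, 1452030_a_at, went the other way, at 0.22. Of all probe sets, 0.0840% were higher and 0.110% lower. Hnrnpul2 differed by 1.31 (SE 0.48, adjusted p = 0.430) and Hnrnph3 by 1.01 (SE 0.29, adjusted p = 0.264). The other detected probe set of Hnrnpul2, 1434551_at, differed by −0.06. In the other families the largest differences were 0.69 for Srsf5 and −0.89 for Srsf3, 0.20 for Sf3b4 and −0.59 for Sf3b2, and 0.72 for Snrpc and −0.57 for Snrpa1; the largest positive difference of a Prpf gene was 0.72 for Prpf38b.

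Between p53+/m and WT HSCs, 3 members were higher and 0 lower at unadjusted p under 0.05 and 2-fold, where 1.44% of all genes were higher and 3.04% lower. The 3 were Srsf5, Srsf11 and Prpf31. Srsf5 read 13.13 and 13.10 in p53+/m HSCs, 12.56 and 12.28 in p53+/- HSCs, and 11.64 and 11.49 in WT HSCs of 12 mo. The 3 genotypes did not overlap, and the p53+/m values were also above the 12.75 and 12.12 of WT HSCs at 21 mo. The difference between p53+/m and WT was 1.55 (SE 0.31, adjusted p = 0.0937). Srsf11 differed by 1.05 (SE 0.18, adjusted p = 0.0708) and Prpf31, a tri-snRNP protein, by 1.79 (SE 0.55, adjusted p = 0.265). On their other detected probe sets, Srsf11 differed by 0.27 (1427269_at) and Prpf31 by −0.27 (1448633_at). Hnrnpll, a regulator of exon choice in lymphocytes, differed by −0.57 (SE 0.07) with an adjusted p of 0.0296, which is under 2-fold. Its other detected probe set, 1425255_s_at, went the other way, at 0.22.

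The largest differences of the families between p53+/m and WT HSCs on the other side were −0.64 for Srsf3 and −1.06 for Prpf40b, of whose 4 values only that of WT array B was at the detected level; the Sf3 genes ran from −0.83 for Sf3a2 to 0.62 for Sf3b1, the snRNP proteins from −0.89 for Snrpe to 1.18 for Snrpc, and the hnRNPs from −0.99 for Hnrnpd to 0.87 for Hnrnph3. Leaving out WT 12-mo array A or array B left a single WT array of that age. More of all genes were then called than in the main fit, and the members called differed between these fits. The calls against WT thus depended on which 12-mo array was kept.

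Between p53+/- and WT HSCs, 1 member was higher and 2 lower at unadjusted p under 0.05 and 2-fold, where 0.888% of all genes were higher and 2.21% lower. Snrpb read 10.38 and 9.79 in p53+/- HSCs, against 8.94 and 8.80 in WT HSCs, a difference of 1.21 (SE 0.24, adjusted p = 0.143). Snrpe, at −1.27 (SE 0.30, adjusted p = 0.218), and Snrpg, at −1.13 (SE 0.26, adjusted p = 0.206), encode further proteins of the Sm ring. In the other families the range was −0.35 for Srsf4 to 0.86 for Srsf5, −0.82 for Sf3a2 to 0.55 for Sf3b1, −0.46 for Hnrnpul2 to 0.93 for Hnrnpr, and −0.94 for Prpf40b, below the detected level on both p53+/- arrays, to 1.20 for Prpf31. The median over the 54 genes was −0.01 for p53+/m over p53+/-, −0.11 for p53+/m over WT and 0.03 for p53+/- over WT HSCs, against 0.01, −0.01 and −0.02 over all genes. Leaving out 1 array turned the sign of each: for p53+/m over WT it was 0.12 without WT array A and −0.23 without array B, for p53+/m over p53+/- 0.06 without p53+/- array B and 0.05 without p53+/m array B, and for p53+/- over WT −0.05 without WT array B and −0.08 without p53+/- array B.

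Of the 4 genes named above for mutations in myeloid neoplasms, Sf3b1, Srsf2 and U2af1 did not pass in any comparison on the probe set used. Sf3b1, the branch point subunit, read 12.16 and 12.13 at 21 mo, against 11.90 and 11.80 at 2 mo, a difference of 0.32 (SE 0.28, adjusted p = 0.627), and its 2 other probe sets differed by −0.61 and 0.40. Its largest difference on the probe set used was that between p53+/m HSCs, at 12.57 and 12.69, and WT HSCs of 12 mo, at 12.48 and 11.54, where the 2 WT arrays lay 0.94 apart. Srsf2, an SR protein, read 10.63 and 11.22 at 21 mo, against 9.90 and 10.26 at 2 mo, a difference of 0.75 (SE 0.43, adjusted p = 0.415), while its second probe set, 1452439_s_at, differed by −1.02. U2af1, the small U2AF subunit that reads the end of the intron and no member of the name series, read 9.45 and 9.24 at 21 mo, against 9.86 and 9.65 at 2 mo, a difference of −0.67 (SE 0.52, adjusted p = 0.586).

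Other splicing genes were read from 8 lists outside these name series, with 127 of 157 listed genes measured. With age 1 was higher and 5 were lower; in 2-mo HSCs against WBM 23 were higher and 6 lower. These counts stand beside 1.45% and 2.03% of all genes with age and 13.3% and 10.5% against WBM. Of the 6788 detected genes, 171 were higher and 242 lower with age, and 1595 higher and 1208 lower against WBM. The lists were not limited to detected genes. The counts with age are small and are not read as apart from the background. The genes lower in 21-mo HSCs were Sart1 (−1.70), of the tri-snRNP; Lsm7 (−1.56), of the ring on U6, and Lsm10 (−2.57), of the U7 snRNP that processes histone mRNA; Clk3 (−1.76), a kinase of SR proteins; and Ddx41 (−1.36), a helicase also mutated in human myeloid neoplasms. Thoc2, of the export complex THO, was the gene higher, at 2.44.

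Sart1 had the lowest adjusted p of these with age, 0.0167: it read 9.10 and 9.34 at 2 mo, 9.20 and 9.21 at 6 mo, 8.56 and 8.99 at 12 mo, and 7.40 and 7.67 at 21 mo. The 21-mo arrays were the lowest, clear of the 12-mo arrays. Thoc2 read 8.16 and 7.85 at 2 mo, 8.87 and 9.43 at 6 mo, 10.18 and 8.91 at 12 mo, and 10.69 and 10.55 at 21 mo, with the 21-mo pair the highest. Ddx41 read 5.11 and 4.86 at 21 mo, against 6.29 and 6.15 at 2 mo, and so ended near the level taken as detected.

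By list, 1 of 16 snRNP partners and 2 of 10 LSm proteins were lower with age, as were 1 of 9 SR protein kinases and 1 of 24 catalytic-step proteins; 1 of 12 junction and export proteins was higher; and none of 17 U2AF and SR-related, 10 SMN complex or 29 other regulators passed. Against WBM, the genes higher in 2-mo HSCs included Sart1 (2.41), Snrnp48 (1.80) and Puf60 (1.46) among snRNP partners, and all 3 LSm genes that passed, Lsm10 (3.05), Lsm7 (1.63) and Lsm4 (1.44). They also included Srek1 (3.50), U2af1l4 (3.12) and Son (2.31) among U2AF and SR-related proteins, the kinases Srpk1 (2.26), Clk3 (1.82) and Clk2 (1.15), and the catalytic-step proteins Isy1 (2.94), Dhx38 (2.14) and Tfip11 (1.99). The 6 genes lower in 2-mo HSCs were Thoc2 (−2.82), Ptbp3 (−2.21), Tra2b (−1.84), Mbnl3 (−1.64), Top1 (−1.38) and U2surp (−1.17). Of the 29 other regulators of alternative exons, 2 were higher in 2-mo HSCs, Tia1 (1.80) and Ptbp2 (1.17), and 2 lower, Ptbp3 and Mbnl3. The junction and export genes Nxf1 (1.60), Ddx39b (1.11) and Rbm8a (1.03) were higher. Lsm10 and Dhx38 were below the detected level in WBM, so their differences there, and that of Lsm10 at 21 mo, are set against undetected values. No gene of the SMN complex passed in either comparison. Between the genotypes 1 gene of the lists passed: Alyref, an export adaptor, read 5.90 and 6.26 in p53+/m HSCs, against 8.16 and 7.89 in WT HSCs of 12 mo, and was lower by 1.94 on the log2 scale (SE 0.25, adjusted p = 0.0273).

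Markers of other cells moved with age beside these genes. The sum of the linear values of 12 neutrophil markers was 1992 to 4631 in 21-mo HSCs, against 1121 to 1762 at 2 mo and 171912 to 181600 in WBM. All 12 had positive differences with age and 2, Lcn2 and Mmp8, passed, while the defining genes Elane, Mpo and Ctsg were below the detected level at both ages. Of 8 monocyte markers, Csf1r and Ccr2 were higher and Irf8 lower. The sum of 10 megakaryocyte and platelet markers was 7267 to 8701 in 21-mo HSCs, against 4592 to 5611 at 2 mo, with Ppbp, Gp9, Gp1bb, Gp5 and Treml1 below the detected level at both ages and none called. The sum of 9 erythroid markers was 1465 to 1748, against 845 to 859 at 2 mo, with 8 of 9 below the detected level at both ages and none called. The sum of 13 B-lineage markers was 107 to 123, against 315 to 341 at 2 mo, with Cd79b called lower and all 13 below the detected level at 21 mo. Of 19 proliferation genes 15 had negative differences with age and Mki67 and Mcm7 passed, and 15 were lower in 2-mo HSCs than in WBM. The part of these cells or of cell division in the values of the splicing genes was not tested.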

How the data were processed

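The 14 samples, 2 in each of 7 groups, were hybridized to Affymetrix MOE430A arrays. Images were processed in MAS 5.0, and the authors deposited log2 values made by GC-RMA, for 22626 probe sets beside 64 controls; the GCRMA version, and whether a single run covered all arrays, is not given in the sources used here. GC-RMA compresses low values, which can shrink differences of faint probe sets. Arrays have no read depth, and their number limits the precision. Gene symbols came from the platform annotation (20380 probe sets with 1 symbol, 691 with several, 1555 with none). No filter or further normalization was applied.

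Differences were fitted with limma 3.58.1 in R 4.3.3: a quadratic in age over 8 arrays, and group means over 10 WT or 12 HSC arrays. P-values were adjusted by Benjamini-Hochberg over the 22626 probe sets, and calls needed an adjusted p under 0.05 plus 2-fold. The fits were checked on simulated data with noise drawn independently for each probe set, so the check does not cover differences shared across an array. The members and lists were chosen with earlier results of these data known. Named genes were members past the threshold (at most 8 per direction), the most positive and most negative member of each family, Sf3b1, Srsf2, Prpf8 and U2af1, members whose probe sets moved 2-fold in opposite directions with age, and at most 3 genes per list and direction; the probe set examples and other members passing before adjustment were chosen after their values were seen. Alternatives omitted single arrays, added a replicate block, or changed the filter, scaling, probe set rule, threshold or model. The letters A and B did not pair the arrays. Promoters were RefSeq's on GRCm38.p6, for 49 of 54 members.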

Additional observations from a re-analysis of the deposited data

Results flagged for a closer look

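Signal also lay on probe sets that carry several symbols, which the comparisons above leave out. The probe set 1415895_at, shared by Snurf and Snrpn, 2 genes of a paternally expressed transcript, read 9.38 and 9.54 in p53+/m HSCs, 7.89 and 7.87 in p53+/- HSCs, and 7.75 and 8.41 in WT HSCs of 12 mo. Both p53+/m arrays lay above all 12 others. The log2 difference was 1.58 over p53+/- HSCs (SE 0.19, adjusted p = 0.0349) and 1.38 over WT HSCs (SE 0.19, adjusted p = 0.0373) by limma. A second shared probe set, 1415896_x_at, read 5.51 and 5.59 in p53+/m HSCs, 3.91 and 3.79 in p53+/- HSCs, and 3.80 and 4.35 in WT HSCs of 12 mo, and did not pass (adjusted p = 0.0585 and 0.0708); 2 further ones stayed under 5 on all 14 arrays.

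In 2-mo HSCs over WBM, 1452680_at, shared by Gm5848 and the Sm protein gene Snrpd2, read 12.55 and 12.50 in HSCs, against 10.07 and 10.17 in WBM, a difference of 2.40 (adjusted p = 0.0274). The probe set 1430020_x_at, shared by Hnrnpa1 and 3 other symbols, read 13.06 and 13.30 in HSCs, against 12.25 and 11.34 in WBM, a difference of 1.38 (adjusted p = 0.0432). On 1423531_a_at and 1430019_a_at, which carry the same symbols, the differences were −0.02 and 0.65, and neither passed. For none of these can the signal be assigned to a single gene.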

How the results depend on the processing

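With age, the main counts were 1 gene higher and 1 lower. Leaving out single arrays gave 0 to 3 higher and 0 to 2 lower: 0 and 0 without any array of 2, 6 or 21 mo, 1 and 2 without WT 12-mo array A, and 3 (Hnrnpl, Hnrnpm, Srsf3) and 2 (Prpf8, Prpf40b) without array B. Group means gave 0 and 0, and arrays centred on the median 0 higher and 1 lower. The mean of all probe sets of a gene gave 2 and 1. Detected probe sets alone gave 1 and 3, where 8.80% of the genes so tested were higher and 11.4% lower. No 12-mo arrays gave 1 and 4, where 4.58% of all genes were higher and 5.54% lower. Unadjusted p-values gave 6 and 5. The share of all genes called also fell without any array of 2, 6 or 21 mo and rose without either 12-mo array. For 2-mo HSCs over WBM, 7 higher and 6 lower became 4 to 9 and 2 to 6 with single arrays left out, 9 and 10 with no fold limit, and 5 and 8 with the mean of all probe sets of a gene, where 7 of 13 calls were kept and Hnrnpa1, Prpf6, Prpf38b, Srsf6, Snrpb2 and Snrpd3 were lost; 6 members kept their call without either 2-mo array or WBM array A, and 7 without WBM array B. For p53+/m over p53+/- HSCs, 0 higher and 1 lower became 0 and 0 to 1 with single arrays left out, 0 and 0 under quantile normalization, the mean of probe sets or the 12-mo arrays alone, and 2 and 2 unadjusted. For p53+/m over WT HSCs, 0 and 0 became 0 to 2 and 0 to 1 with single arrays left out, 1 higher (Srsf11) after median centring, 1 lower (Hnrnpll) with no fold limit, and 3 and 0 unadjusted; for p53+/- over WT HSCs they became 0 to 2 and 0 to 2, and 1 and 2 unadjusted. The cause of these changes was not tested. No member named as called changed sign under any alternative run.

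With letter as a replicate block, 0 members were higher and 0 lower with age, 6 and 4 for 2-mo HSCs over WBM, and 0 and 0 in each genotype comparison. The letters did not pair the arrays: of 21 pairs of groups, the deviations of A and B correlated above 0.1 in 2 and below −0.1 in 3 (range −0.32 to 0.17).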

Other observations

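Probe sets shared with pseudogenes held further members of the name series. Hnrnpa3, an hnRNP of the A and B group, was read with Gm6793 on 4 probe sets, whose differences between 21 and 2 mo were 0.57, 0.63, 1.23 and −0.52, none past the threshold by limma. On 1428262_s_at it read 12.24 and 12.57 in 2-mo HSCs, against 13.57 and 13.41 in WBM, and was called lower in HSCs (−1.09, adjusted p = 0.0115). Snrpd1, read with Gm14277, read 9.48 and 8.95 in 2-mo HSCs, against 10.19 and 10.20 in WBM (−0.98, adjusted p = 0.0253, under 2-fold). Snrpa was near the detected level, with values of 4.32 to 5.29.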
